A study of Mus musculus with 4 samples.

Results

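The genes that carry glucose into the cell and break it down to lactate were compared between mouse embryonic stem cells (ESCs) grown in serum and in 2i. The 10 genes were chosen by symbol, matched to the Ensembl identifiers of the deposited RNA table. They are the glucose transporter genes Slc2a1 and Slc2a3, the hexokinase genes Hk1 and Hk2, the phosphofructokinase genes Pfkl and Pfkp, and Aldoa, Pgk1, Eno1 and Ldha. All 10 were among the 14533 genes of the table, and all 10 passed the filter on low values, under which a gene needed a mean of 50 normalized counts in serum or in 2i and which left 13005 genes for testing. Serum ESCs were kept in fetal calf serum with LIF, a cytokine that maintains pluripotency. 2i ESCs were kept in serum-free medium with LIF, the MEK inhibitor PD0325901 and the GSK3 inhibitor CHIR99021. Both had been in their medium for over 20 days, and both were sorted by flow cytometry to late G1-phase according to the sample labels, whereas the description of the series speaks of early G1-phase. There were 2 libraries per group and 4 in all. The study describes the replicates as biological. The labels name neither the cell line nor the cultures, so that how far the replicates were independent is not known, and the p-values measure the spread between these 4 libraries.

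Glycolysis splits glucose into pyruvate in the cytosol. Glucose enters through facilitative transporters, hexokinase traps it by phosphorylation, phosphofructokinase commits the sugar to breakdown, and the later enzymes recover ATP and NADH. Lactate dehydrogenase then turns pyruvate into lactate, which regenerates the NAD that the pathway consumes. Several steps have more than 1 gene for the same reaction, and such isoforms differ in their affinity, their regulation and the tissues that use them. Mouse ESCs are known for a high glycolytic rate. Hypoxia-inducible factor and Myc are well-known activators of many of these genes.

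The libraries held 18939401 to 26570098 whole reads, of which protein-coding genes took 46.9% to 76.3%, the smallest share in serum replicate 1. In that library the 10 most abundant genes took 50.6% of reads, against 17.5% to 34.7% in the other 3. The first principal component (54.0% of the variance) separated replicate 1 from replicate 2 of both groups, and the second (30.4%) separated serum from 2i. All 10 pluripotency markers were present, with sums of 60120 to 95277 normalized counts per library. Of 9 primitive endoderm markers 5 were in the table, and their sums were 75.0 and 156 in serum and 256 and 337 in 2i. Sox7, Foxa2, Dab2 and Afp of that list were not among the rows. Of 9 fibroblast markers, for feeder cells, 2 were in the table, with sums of 58.2 to 230. The part of these differences in the values below was not tested. In bulk RNA, fewer cells that express a gene and less RNA per cell cannot be told apart.

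None of the 10 genes was called different between serum and 2i ESCs by limma at a Benjamini-Hochberg adjusted p-value under 0.05 with at least a 2-fold difference, and none had an unadjusted p-value under 0.05. Over all 13005 genes tested, that call was passed by 0% in the direction of serum and 0.0154% in the direction of 2i, so that a count of 0 among 10 genes lies at the background. An unadjusted p-value under 0.05 was found for 5.97% of all genes. edgeR and DESeq2 on the whole reads also called none of the 10, with 0 and 1 of them at an unadjusted p-value under 0.05, the 1 being Slc2a3. DESeq2 called 1.93% of all genes and edgeR 0%, and their unadjusted p-values were under 0.05 for 13.2% and 6.05%. On the log2 scale 4 of the 10 genes had the higher mean in serum and 6 in 2i (5 and 5 after a correction for GC content and length, under which Pfkl changes sign), and the median log2 fold change (serum minus 2i) was -0.12, against 0.0047 over all genes tested, and turned to 0.13 without serum replicate 1. The 95% intervals of all 10 include 0 and also a 2-fold change in at least 1 direction, the narrowest being that of Pfkl (-1.22 to 0.95), so that 2 libraries against 2 could not resolve changes of that size.

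**Figure D1:**
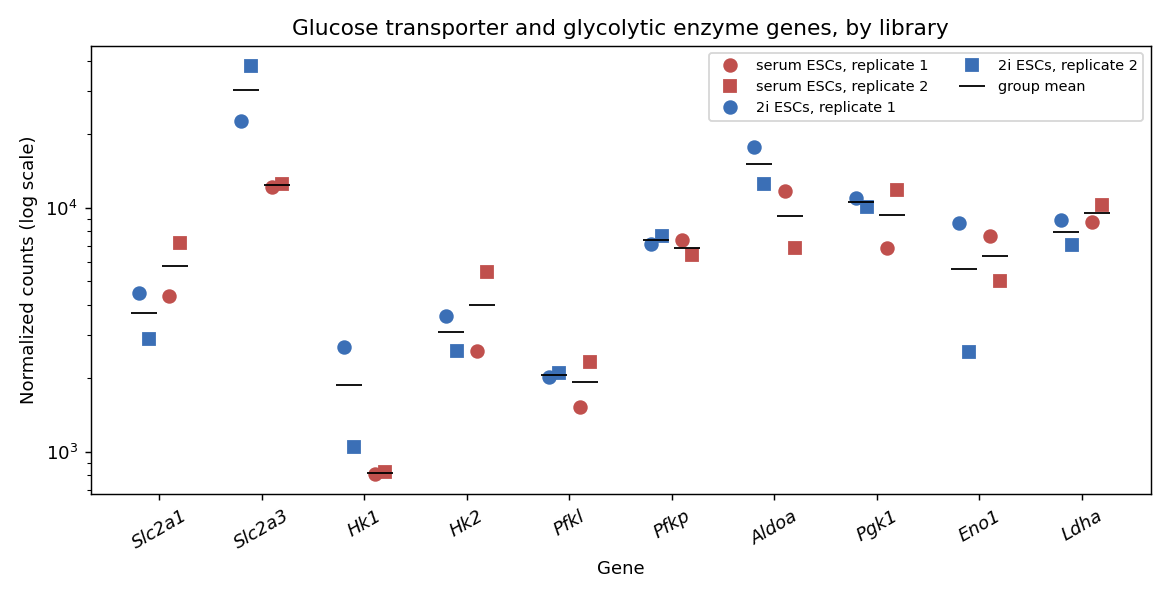
Normalized counts (log scale) of the 10 genes in each of the 4 libraries, with blue for 2i ESCs, red for serum ESCs, circles for replicate 1, squares for replicate 2 and dashes for group means. Slc2a3, Hk1 and Aldoa are the genes whose blue points both lie above both red points.

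**Figure D2:**
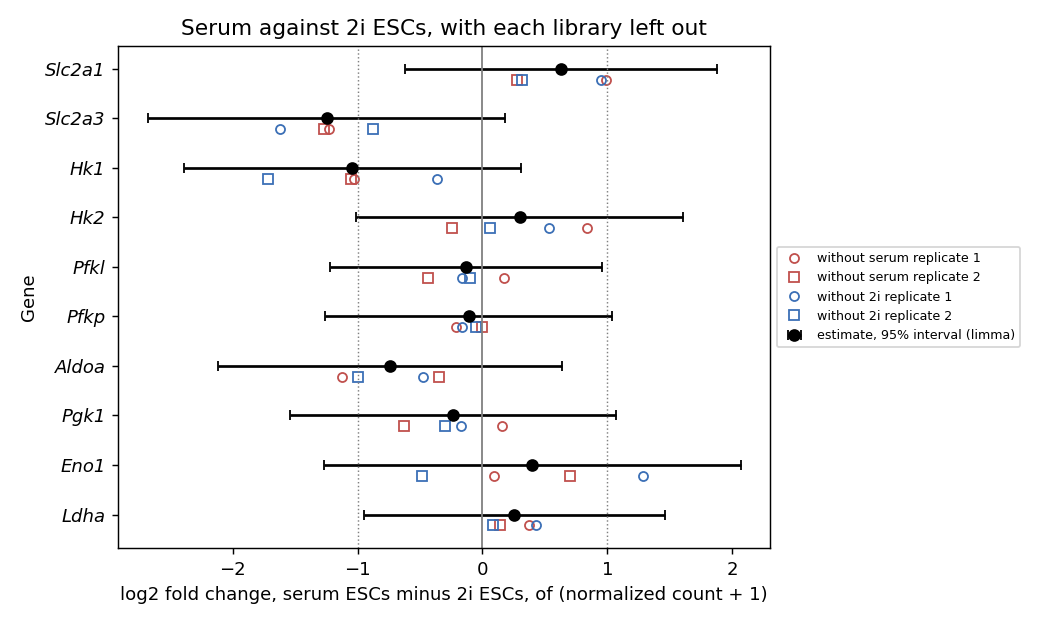
log2 fold change of each gene, serum minus 2i, with its 95% interval from limma (black), and the estimate with each of the 4 libraries left out (open symbols). Dotted lines mark a 2-fold change, and every interval crosses 0.

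The glucose transporters held the largest difference of the set. Slc2a3 encodes GLUT3, a high-affinity transporter known from neurons and early embryos. It lies on chr6:122677827-122751658 of mm9, minus strand, and had 22761 and 38037 normalized counts in 2i replicates 1 and 2, against 12201 and 12576 in the serum replicates. Both 2i values lay above both serum values, and the serum replicates differed by 1.03-fold whereas the 2i replicates differed by 1.67-fold. The log2 fold change was -1.25 (SE 0.59, 2.38-fold higher in 2i), which did not pass the test (limma, adjusted p-value 0.753). With DESeq2 the adjusted p-value was 0.0909, the lowest of any of the 10 genes under the alternatives tried, over which that of Slc2a3 ranged from 0.0909 to 1. Leaving out any 1 library kept the estimate between -1.62 and -0.88.

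Slc2a1, on chr4:118781316-118809935, encodes GLUT1, the transporter of basal glucose uptake in most tissues. Its values were 4495 and 2905 in 2i and 4368 and 7166 in serum, so that the groups overlapped, and only serum replicate 2 stood above the rest. The log2 fold change was 0.63 (SE 0.52, adjusted p-value 0.777 by limma), the highest of the 10 genes.

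Set against each other within a library, which removes the scaling between libraries, the transporters separated the groups. The ratio of Slc2a3 to Slc2a1 counts was 5.06 and 13.1 in 2i and 2.79 and 1.76 in serum. Every 2i ratio exceeded every serum ratio, and the difference of the mean log2 ratios was -1.88, with a pooled SD between replicates of 0.76. Per kb of transcript, Slc2a3 made up 76.9% and 89.6% of the pair in 2i and 64.8% and 53.6% in serum, so that it was the more abundant transporter transcript in all 4 libraries. Leaving out any 1 library moved the difference between -2.56 and -1.19. With 2 libraries against 2, the smallest two-sided p-value of an exact permutation test is 0.333, and no test was run on the ratios. The counts of Slc2a3 alone already separated the groups. How often ratios of other gene pairs separate was not worked out. Of all single genes tested, 19.4% had both 2i values above both serum values and 20.5% had the reverse.

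The hexokinase genes also had estimates of opposite sign, with that of Hk1 on the side of 2i as that of Slc2a3 was. Hk1 (chr10:61731603-61842656, minus strand) encodes the widely expressed hexokinase, which binds mitochondria. Its counts were 2691 and 1051 in 2i and 810 and 822 in serum. Both 2i values were the higher ones, but 2i replicate 2 was much closer to the serum libraries than to its own replicate, which differed from it by 2.56-fold. The log2 fold change was -1.04 (SE 0.56, 2.06-fold higher in 2i, adjusted p-value 0.753 by limma), and it moved to -0.36 when 2i replicate 1 was left out and to -1.72 when 2i replicate 2 was.

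Hk2 (chr6:82675019-82724448, minus strand), the inducible hexokinase of muscle, fat and many tumours, had 3591 and 2594 in 2i and 2580 and 5448 in serum. The groups overlapped, and the serum replicates differed by 2.11-fold. The log2 fold change was 0.30 (SE 0.54, adjusted p-value 0.91 by limma), and it turned to -0.24 without serum replicate 2.

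The ratio of Hk2 to Hk1 was 1.33 and 2.47 in 2i and 3.18 and 6.63 in serum. Here both serum ratios were above both 2i ratios, and the difference of the mean log2 ratios was 1.34 with a pooled SD of 0.69. It stayed between 0.81 and 1.87 with any 1 library left out. The counts of Hk1 alone already separated the groups, and no test was run on this ratio either. Per kb of transcript, Hk2 was 50.9% and 65.7% of the pair in 2i and 71.2% and 83.7% in serum, so that both genes contributed about equally in 2i replicate 1 alone.

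Phosphofructokinase is the step that commits glucose to glycolysis, and its genes Pfkp and Pfkl gave no such separation. Pfkp (chr13:6579014-6648023, minus strand), the platelet type, had 7125 and 7679 in 2i and 7366 and 6379 in serum. Pfkl (chr10:77449692-77472828, minus strand), the liver type, had 2021 and 2110 in 2i and 1526 and 2322 in serum. Both overlapped between the groups, and their log2 fold changes of -0.11 (SE 0.48) and -0.13 (SE 0.45) were the smallest of the set. The ratio of Pfkp to Pfkl was 3.52 and 3.64 in 2i, within the 4.83 and 2.75 of the serum libraries. The difference of the mean log2 ratios was 0.02 with a pooled SD of 0.41, and its sign depended on the library left out (-0.38 to 0.43). The muscle type Pfkm, which is not among the 10 and was named after its values were seen, had 780 and 1387 in 2i and 581 and 456 in serum, so that both 2i values were the higher ones (log2 fold change -1.01, SE 0.49, adjusted p-value 0.753 by limma). The reads of Pfkp and of Pitrm1, an overlapping gene on the other strand with 1354 to 2030 normalized counts, cannot be told apart by strand, which the library kit does not mark.

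**Figure D3:**
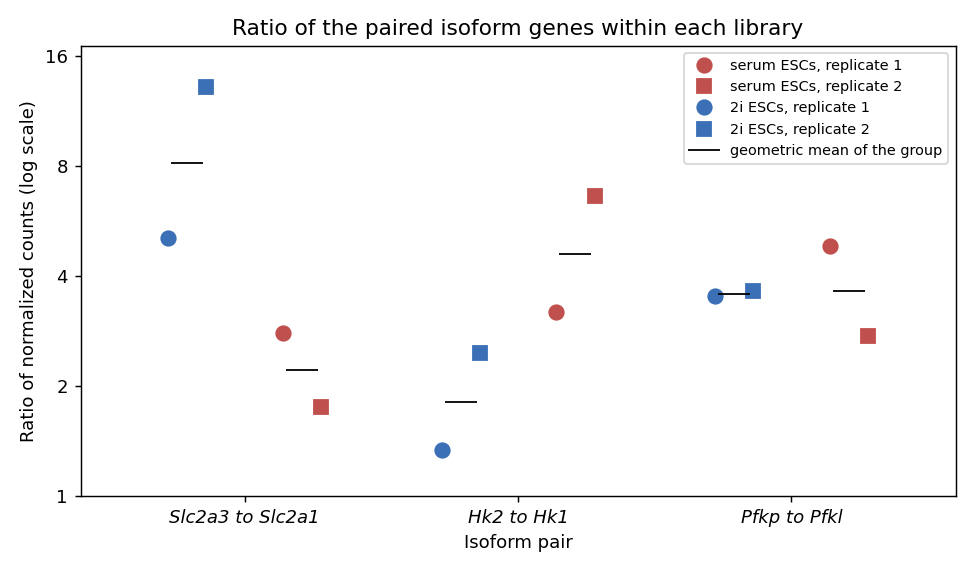
Ratio of normalized counts (log scale) of the 3 pairs of isoform genes within each library, with dashes for the geometric mean of each group. The 2i and serum points separate for Slc2a3 to Slc2a1 (2i above) and for Hk2 to Hk1 (serum above), where the direction depends on which gene is the numerator, and overlap for Pfkp to Pfkl.

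Among Aldoa, Pgk1, Eno1 and Ldha, Aldoa was the gene whose groups did not overlap. It encodes aldolase A, which splits fructose bisphosphate into triose phosphates, and lies on chr7:133938748-133944265, minus strand. Its counts were 17814 and 12468 in 2i and 11716 and 6821 in serum. The gap between the closest 2i and serum libraries was small beside the 1.43-fold and 1.72-fold between replicates, and the log2 fold change was -0.74 (SE 0.57, 1.67-fold higher in 2i, adjusted p-value 0.771 by limma). Slc2a3, Hk1 and Aldoa thus make 3 of 10 genes with both 2i values above both serum values, and 0 of 10 had the reverse. Over all genes tested these shares were 19.4% and 20.5%.

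Pgk1 (chrX:103382439-103399038) encodes phosphoglycerate kinase, the first step that yields ATP. It had 11018 and 10126 in 2i and 6825 and 11783 in serum, a log2 fold change of -0.24 (SE 0.54). Serum replicate 1 alone was low, and without it the estimate was 0.16. Of the 43-base words (the read length) in its transcript 93.3% also occur elsewhere in mm9, so that its count rests on how the authors divided shared reads. Its pseudogenes Pgk1-rs7 and Gm5537, each with 70.3% of the words, held 1054 counts in 2i replicate 1 and 2090 in serum replicate 1 respectively and at most 10.7 in the other libraries. With both added to Pgk1 the sums were 12071 and 10139 in 2i and 8915 and 11784 in serum, and the log2 fold change was -0.11 (SE 0.52).

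Eno1 (chr4:149610830-149622988), which encodes enolase, had 8686 and 2555 in 2i and 7675 and 5035 in serum. The 2i replicates differed by 3.40-fold, the widest gap between replicates of the set, and the log2 fold change of 0.40 (SE 0.69) turned to -0.48 without 2i replicate 2. Of its words 74.1% occur elsewhere in the genome. The near-identical copy Gm5506 was listed with 5795 and 3735 in 2i and 7901 and 5992 in serum, the same range as Eno1, and the sums with Gm5506 and the pseudogene Gm13699 were 14894 and 7160 in 2i and 18183 and 13158 in serum. The log2 fold change of these sums was 0.58 (SE 0.61).

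Ldha (chr7:54096845-54110997), the lactate dehydrogenase subunit that favours the conversion of pyruvate to lactate, had 8942 and 7021 in 2i and 8714 and 10265 in serum. The groups overlapped by little, the log2 fold change was 0.26 (SE 0.50), and it stayed positive (0.08 to 0.43) with any 1 library left out. Of the words of Ldha 37.6% occur elsewhere in the genome, and of those of Aldoa 21.5%. Both counts thus rest in part on how shared reads were divided.

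Per kb of the longest protein-coding transcript, which makes genes comparable, Aldoa led the set in 2 of 4 libraries, and over all 4 it had 4404 to 11501 normalized counts per kb. In 2i replicate 2 Slc2a3 led with 9608, above the 8049 of Aldoa, and in serum replicate 2 Pgk1 led with 6457, above the 5813 of Ldha and the 4404 of Aldoa. Hk1 was the lowest of the set in 3 libraries and ranged from 189 to 629 per kb, and Pfkl was the lowest in 2i replicate 1. Between these ends, Slc2a3 ranged from 3082 to 9608, Pgk1 from 3739 to 6457, Ldha from 3976 to 5813, Eno1 from 1261 to 4285, Pfkp from 1539 to 1853, Slc2a1 from 1114 to 2749, Hk2 from 468 to 988 and Pfkl from 409 to 623. The ranges of Aldoa, Pgk1, Ldha and Slc2a3 overlap, as do those of Pfkp and Slc2a1 and those of Hk2, Pfkl and Hk1. That of Eno1 overlaps those of Slc2a3, Pgk1, Ldha, Pfkp and Slc2a1. The places of Pgk1, Eno1, Ldha and Aldoa depend in part on how shared reads were divided. The smallest count was that of Hk1 in serum replicate 1, 810 whole reads with an exact 95% Poisson interval of 755 to 868, which covers counting error only. All other values rest on more reads, and their relative counting error is smaller.

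Summed over the 10 genes, the counts were 89144 and 86545 in 2i and 63781 and 68618 in serum. These sums were higher in both 2i libraries, and the genes took 0.686% and 0.659% of protein-coding reads in 2i and 0.512% and 0.488% in serum. Slc2a3 alone made up 25.5% and 44.0% of the 2i sums and 19.1% and 18.3% of the serum sums. Without Slc2a3 the sums were 66383 and 48508 in 2i and 51580 and 56042 in serum, which overlap.

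The bases in front of the transcription start were read for 9 of the 10 genes. They show where the letters bound by hypoxia-inducible factor (ACGTG and the related GCGTG) and by Myc (CACGTG, which itself holds ACGTG) occur. Those of Slc2a1, Hk1, Hk2 and the first start of Ldha are printed. The sequences are from RefSeq on GRCm38.p6, a newer build than the mm9 of the counts, and run 250 bases upstream of the start, 5′ to 3′. Capitals mark the motifs on either strand, so that ACGTG may read CACGT and GCGTG may read CACGC. Slc2a3 has no entry in that set. Hk1 and Ldha each have 2 annotated starts, and the start used in these cells was not determined. The second start of Ldha holds GCGTG but neither ACGTG nor CACGTG.
Slc2a1, chr4:119108495-119108744, plus strand: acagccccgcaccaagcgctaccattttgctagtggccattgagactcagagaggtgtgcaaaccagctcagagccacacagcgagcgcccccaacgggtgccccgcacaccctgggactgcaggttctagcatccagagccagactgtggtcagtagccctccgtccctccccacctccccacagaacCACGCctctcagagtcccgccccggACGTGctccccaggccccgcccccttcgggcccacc
Hk1, the first start, chr10:62379909-62380158, minus strand: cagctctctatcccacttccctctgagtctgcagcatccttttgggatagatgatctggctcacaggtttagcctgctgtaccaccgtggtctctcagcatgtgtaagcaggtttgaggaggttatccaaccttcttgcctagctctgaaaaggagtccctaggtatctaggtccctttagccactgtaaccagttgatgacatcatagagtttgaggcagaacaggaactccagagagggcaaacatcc
Hk1, the second start, chr10:62340422-62340671, minus strand: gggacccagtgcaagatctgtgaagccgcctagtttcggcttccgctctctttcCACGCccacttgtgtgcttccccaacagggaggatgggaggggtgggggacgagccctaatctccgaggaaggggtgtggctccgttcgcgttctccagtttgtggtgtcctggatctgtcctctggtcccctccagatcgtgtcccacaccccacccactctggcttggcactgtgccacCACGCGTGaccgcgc
Hk2, chr6:82774455-82774704, minus strand: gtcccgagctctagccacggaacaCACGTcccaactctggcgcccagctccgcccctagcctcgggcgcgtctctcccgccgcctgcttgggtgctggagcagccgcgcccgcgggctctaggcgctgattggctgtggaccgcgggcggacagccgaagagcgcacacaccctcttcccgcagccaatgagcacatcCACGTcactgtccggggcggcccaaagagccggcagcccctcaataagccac
Ldha, the first start, chr7:46845554-46845803, plus strand: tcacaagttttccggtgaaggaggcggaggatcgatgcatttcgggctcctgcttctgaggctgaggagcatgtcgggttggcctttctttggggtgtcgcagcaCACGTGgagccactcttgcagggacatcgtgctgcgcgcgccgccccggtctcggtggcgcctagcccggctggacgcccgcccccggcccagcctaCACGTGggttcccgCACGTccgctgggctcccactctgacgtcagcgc
ACGTG was found in the window of at least 1 start for 5 of the 9 genes with an entry, GCGTG for 6, and CACGTG for 1, Ldha. Counted by window, ACGTG was in 6, GCGTG in 8 and CACGTG in 1 of their 15 windows. Of 32851 windows of all genes, 16.6%, 28.2% and 6.02% hold these motifs. Genes with several starts had several chances of a match. Some windows of Eno1 and of Aldoa overlap, so that the same site was counted in more than 1 window. The 5 genes with ACGTG were Slc2a1, Hk2, Ldha, Aldoa and Pgk1, and those without it were Hk1, Eno1, Pfkl and Pfkp. Log2 fold changes of both signs occurred among the genes with it (0.63 for Slc2a1, -0.74 for Aldoa). The same held among the genes without it (0.40 for Eno1, -1.04 for Hk1). The second start of Hk1 holds GCGTG. A match of letters is a description of the window, and no binding was measured.

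The other enzymes of the pathway also lay on both sides of 0. Of 21 further glycolytic enzyme genes 15 were in the table and tested, none was called, and 10 had the higher mean in 2i (9 to 12 under the other scalings), with a median log2 fold change of -0.49. That median was -0.99 without serum replicate 1, -0.32 without serum replicate 2 and -0.17 with the correction for GC content and length. Pkm, pyruvate kinase, was the most abundant of them per kb and had 23757 and 27454 counts in 2i and 31043 and 33160 in serum, a log2 fold change of 0.33 (SE 0.61). Its serum values were both the higher ones. Eno3, the muscle enolase, had the highest log2 fold change of this group, 0.89 (SE 0.64).

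The largest differences among these 15 lay in tissue-restricted isoforms at low counts. Aldoc, the brain aldolase, had 514 and 589 in 2i and 220 and 69.0 in serum (log2 fold change -2.15, SE 0.66, unadjusted p = 0.0156 by limma). Pgam2, the muscle phosphoglycerate mutase, had 161 and 104 in 2i and 42 and 11.7 in serum (-2.48, SE 1.0, unadjusted p = 0.0456 by limma). Ldhc, the testis lactate dehydrogenase, had 60.2 and 242 in 2i and 20.0 and 3.89 in serum (-3.59, SE 1.39, unadjusted p = 0.0393 by limma). All 3 had both 2i values above both serum values, which their choice by unadjusted p-value favours. All 3 had an adjusted p-value of 0.753 by limma. Among the 15 genes, 7 had both 2i values above both serum values and 3 had the reverse. Over all genes tested these shares were 19.4% and 20.5%. For these isoforms serum replicate 2 was the lowest library.

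Transporters for the ends of the pathway were tested as well. Of 11 other sugar transporter genes 4 were in the table and 3 were tested, all with negative estimates (Slc2a4 turned positive with quantile normalization) and at most 223 counts. They ran from Slc5a1 (-1.57, SE 2.14), a sodium-coupled transporter, to Slc2a4 (-0.50, SE 1.23), the insulin-responsive GLUT4, and Slc2a8 was the most abundant per kb. Of 7 genes for lactate and pyruvate transport 5 were tested. Bsg, the chaperone basigin that brings lactate transporters to the membrane, had 3186 and 3644 in 2i and 1333 and 1775 in serum (-1.15, SE 0.44, unadjusted p = 0.0379 and adjusted p = 0.753 by limma), and its groups did not overlap. Slc16a1, the lactate transporter MCT1 that basigin accompanies, had 2204 and 2752 in 2i and 3454 and 3828 in serum (0.56, SE 0.44), and its serum values were both the higher ones.

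At the branch point after pyruvate, 11 genes of the pyruvate dehydrogenase complex and its regulators had a median of 0.11, and 6 of them were higher in serum (4 to 6 under the other scalings). The sign of that median was not stable, with -0.24 without 2i replicate 1, 0.36 without 2i replicate 2 and -0.07 with the correction for GC content and length. Pdk1, a kinase that shuts the complex and is a known target of hypoxia-inducible factor, had 1676 and 1636 in 2i and 3962 and 6298 in serum. Its replicates in 2i differed by little and both serum values were more than 2-fold higher, with a log2 fold change of 1.59 (SE 0.47, unadjusted p = 0.0129, adjusted p = 0.753 by limma). DESeq2 called it with an adjusted p-value of 0.0187, and over the alternatives that value ranged up to 1. The lowest of these genes was Pdk2, another such kinase (-1.02, SE 1.02), and the most abundant per kb was Pdhb, a subunit of the complex (-0.12, SE 0.57).

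The 8 genes of the pentose phosphate pathway, which draws on the first product of hexokinase, had a median of -0.44, which shrank to -0.06 without 2i replicate 2, -0.08 without serum replicate 2 and -0.12 with the correction for GC content and length, and was -0.71 without serum replicate 1. They ran from Tkt (-0.73, SE 0.51), transketolase, to Rpe (0.90, SE 0.46), an epimerase, and the most abundant per kb was Taldo1, transaldolase (-0.71, SE 0.58). Of 7 genes that set fructose bisphosphate levels 6 were tested, with a median of -0.32 (-0.90 without 2i replicate 1 and -0.17 without 2i replicate 2), from Fbp2 (-2.65, SE 1.78) to Pfkfb3 (0.63, SE 0.77). Fbp2, the muscle fructose bisphosphatase, had 654 counts in 2i replicate 2 and 11.7 to 22 in the other 3, and its estimate was -0.04 without that library. Tigar was the most abundant per kb (-0.38, SE 0.61).

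Genes around hypoxia-inducible factor were compared because the factor is a regulator of glycolysis. The 8 genes of the factor and its oxygen sensors had a median of 0.63 (0.13 without 2i replicate 2 and 0.36 without serum replicate 2) and ran from Vhl (-1.07, SE 0.64), which marks the factor for degradation, to Egln3 (1.03, SE 0.90), an oxygen sensor. Hif1a, the oxygen-regulated subunit and the most abundant of them per kb, had 2059 and 2184 in 2i and 2485 and 3710 in serum (0.52, SE 0.45). Of 12 of its targets outside glycolysis 10 were tested, with a median of -0.69. Of these, 9 were negative (10 with the correction for GC content and length), beside 49.7% of all genes tested. Kdm3a turned to 1.11 and Ankrd37 to 0.38 without 2i replicate 2, and Bnip3 and Ankrd37 each to 0.04 without serum replicate 1. With quantile normalization Ankrd37 and Bnip3l changed sign. The median ran from -0.98 without 2i replicate 1 to -0.53 with the correction for GC content and length. Vegfa, the vascular growth factor, had 2065 and 524 in 2i and 204 and 280 in serum (-2.12, SE 0.71, unadjusted p = 0.0225, adjusted p = 0.753 by limma), and the highest was Bnip3l, a mitophagy receptor (0.18, SE 0.45). Ddit4, a stress-induced inhibitor of mTOR and the most abundant per kb, had 6408 and 1268 in 2i and 1624 and 443 in serum (-1.75, SE 0.93).

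Among 7 transcriptional regulators of glycolysis and sugar responses the median was -0.21, with 2 genes positive, and it ranged from -0.73 without 2i replicate 2 to 0.11 without serum replicate 1. Myc had 7.27 and 4.85 in 2i and 131 and 657 in serum, a log2 fold change of 5.41 (SE 1.17, unadjusted p = 0.0030, adjusted p = 0.753 by limma), and DESeq2 called it (adjusted p-value 1.6e-05, with a range up to 1 over the alternatives). Mycn, its close relative, had 1205 and 573 in 2i and 1053 and 894 in serum and thus the higher count in all 4 libraries. Txnip, an inhibitor of glucose uptake induced by sugar and the most abundant of these genes per kb, had 10717 and 5030 in 2i and 4893 and 2956 in serum (-0.95, SE 0.58). Mlxipl, which encodes the sugar sensor ChREBP, was the lowest (-1.36, SE 1.38). Over all 9 lists, 73 further genes were tested, limma called 0 of them, and 7 of them had an unadjusted p-value under 0.05, or 9.59%, beside the 5.97% of all genes.

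**Figure D4:**
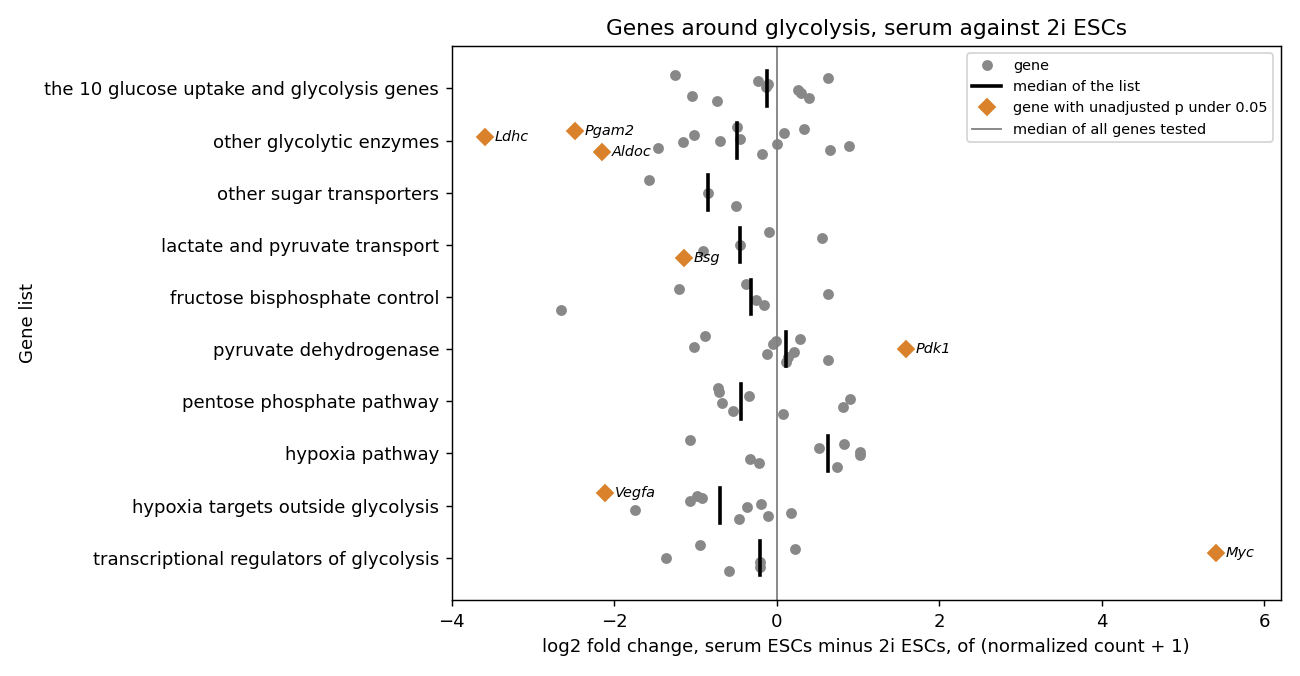
log2 fold change (serum minus 2i) of each gene tested in the 10 lists, with the median of each list as a black bar and the median of all genes tested as a grey line. Orange diamonds are named genes with an unadjusted p-value under 0.05, none of which passed after adjustment in this limma fit.

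Slc2a3 lies in a part of chromosome 6 that also holds genes of pluripotency. Its nearest neighbour in the table is Nanog, 13176 bases away, with 13612 and 11892 in 2i and 9449 and 10040 in serum (log2 fold change -0.39, adjusted p-value 0.867 by limma). The sixth nearest is Dppa3, a gene of the germ line and early embryo 97537 bases away, with 244 and 391 in 2i and 18 and 17.5 in serum (-4.05, adjusted p-value 0.753 by limma). Of the 6 nearest genes, taken by distance alone, 4 (Nanog, Foxj2, Gm10420 and Dppa3) had both 2i values above both serum values, as Slc2a3 did, and 0 had the reverse, beside 19.4% and 20.5% of all genes. The 4 were named after their values were seen, 6 genes are too few to read a regional pattern from, and none was called by limma.

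The genes most like the 10 in pattern were Cyth3, Tmem37 and Kif13b, whose centred log2 values over the 4 libraries lay at Euclidean distances of 0.067, 0.077 and 0.093 from the mean of the 10. That mean profile stood at -0.19 and -0.002 in the serum replicates and at 0.31 and -0.12 in the 2i replicates, so that 2i replicate 1 stood apart from the other 3 libraries rather than 2i from serum.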

How the data were processed

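RNA was measured in 4 libraries of sorted G1-phase mouse ESCs, 2 in serum and 2 in 2i. The authors depleted ribosomal RNA from total RNA, primed at random, and sequenced 43-base single reads without strand. They aligned to mm9 with Bowtie (version not given in the sources used here) and estimated expression with MMSeq, which divides reads shared by related transcripts. The deposited values are a signal, in which each gene's count was divided by the DESeq2 size factor of its library, and 100% of them came out as whole reads (tolerance 0.01).

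The study used DESeq2. Because the deposited values are scaled, the main test here was limma 3.58.1 (R 4.3.3, trend) on log2(normalized count + 1), serum minus 2i, which understates changes of low genes. The adjusted p-value is Benjamini-Hochberg over 13005 genes. edgeR 4.0.16 and DESeq2 1.42.0 on the whole reads were alternatives. On simulated data the limma test found the changed genes at a low spread, but missed most at the spread estimated from these libraries. Positions and transcripts came from GENCODE vM1 (mm9), which held 14462 of 14533 genes, with a transcript for 12928. Read-length words shared with other loci were counted in the genome, and copies with at least 20% of the words were summed with their gene, an alternative chosen after seeing the data.

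The 10 genes, the 9 further lists and the comparison were chosen with earlier results of these data known. Named beyond the 10 were genes of the lists with an unadjusted p-value under 0.05, the highest and lowest fold change and the most abundant per kb of each list, and the 3 genes nearest in pattern. A few others (Mycn, Pfkm, Slc2a3 neighbours, gene copies) were named after their values were seen.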

Additional observations from a re-analysis of the deposited data

How the results depend on the processing

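None of the 10 genes was called under any of 20 alternatives. In 1 of these, the main limma fit was read at an unadjusted p-value under 0.05 with 2-fold. In other fits Slc2a3 did pass that looser threshold. Its unadjusted p-value was 0.043 by limma with upper quartile scaling and 0.043 with GC content and length correction. It was 0.0105 by limma with that correction and the replicate block, and 0.0029 by DESeq2. Of 190 fold changes of single genes refitted, 184 kept their sign and 6 turned. None was called in any setting, so that this count speaks of signs and not of sizes. Without 1 library, Slc2a3 ran from -1.62 to -0.88, Hk1 from -1.72 to -0.36 and Aldoa from -1.13 to -0.35. These ranges cross a 2-fold change. Pfkl turned to 0.11 with a correction for GC content and length, with or without the replicate block. Without 1 library the ranges were -0.44 to 0.17 for Pfkl, -0.24 to 0.84 for Hk2, -0.63 to 0.16 for Pgk1 and -0.48 to 1.28 for Eno1, and the other 6 genes kept their sign. The median of the 10 genes was -0.29 to 0.13 without 1 library, the ends being those without serum replicate 2 and without serum replicate 1. Upper quartile scaling moved the median of all genes from 0.0047 to -0.14 and that of the 10 genes to -0.27, with no sign changed among them.

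Of all genes, limma called 0 higher in serum and 2 higher in 2i. Higher in serum were 44 with the replicate block, 1 with GC content and length correction and the block together, 73 with DESeq2 and 386 at an unadjusted p-value. Higher in 2i were 4 at a mean of at least 200, 1 without the trend, 159 with the replicate block, 0 with GC content and length correction, 0 with protein-coding genes alone, 0 with edgeR, 178 with DESeq2, 390 at an unadjusted p-value and 0 with any 1 library left out. The cause was not tested. At a mean of at least 200 no other sugar transporter was left to give a median. The same-numbered replicates deviated together (r = 0.48 over genes, and 0.31 after GC correction), but with 2 pairs and no label this does not show pairing. With the block, Slc2a3 had an adjusted p-value of 0.488 and Hk1 of 0.480. The block also brought Myc past the call (adjusted p-value 0.00761). With 2 libraries a group the spread is poorly known, and genes with few reads, such as Myc in 2i, carry counting error besides.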
